A study of Mus musculus with 12 samples.

Results

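Genes of the tumor necrosis factor (TNF) ligand and receptor families, 10 in all, were selected by gene symbol for description in LPS-stimulated mouse peritoneal exudate cells. The rule named symbols only, but the 10 genes were chosen with earlier results of these data known. Of the 10 listed genes, 9 had a row among the 12850 genes of the table, namely the ligands Tnf, Tnfsf15, Tnfsf9, Tnfsf10, Tnfsf13b and Ltb (6 genes) and the receptors Tnfrsf1a, Tnfrsf1b and Fas (3 genes). The receptor Tnfrsf9 was not analysed here. All 9 genes passed the filter on low values (1 CPM, the reads of a gene scaled to a library of common size, in at least 2 libraries), which kept 11885 genes for the tests.

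RNA was sequenced from thioglycollate-elicited peritoneal exudate cells (PECs), which are largely macrophages drawn into the belly cavity by an irritant, from WT C57BL/6 mice and from Zc3h12a S513A/S513A mice (S513A), a knock-in made by CRISPR/Cas9 in which a serine of the RNase Regnase-1 is replaced with alanine. PECs of both genotypes were taken from mice given Brewer's thioglycollate, cultured, and left unstimulated (0 hr) or treated with 100 ng/ml LPS, a component of the outer membrane of Gram-negative bacteria, for 4 or 8 hr. Each of the 6 groups (WT 0, 4 and 8 hr, S513A 0, 4 and 8 hr) had 2 libraries, 12 in all. The sources used here do not give the age or sex of the mice, or whether the 2 libraries of a group came from separate mice or cultures, so the p values below measure only the spread between these libraries. The mutation is a coding change that the level of Zc3h12a mRNA does not check.

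Members of the TNF ligand family are made as type II membrane proteins that act as trimers, on the cell surface or after cleavage, and bind receptors with cysteine-rich extracellular repeats. Receptors with a death domain, such as TNFR1 (Tnfrsf1a) and Fas, can recruit adaptors that lead to caspase activation, while others, such as TNFR2 (Tnfrsf1b), bind TRAF proteins and signal to NF-κB and MAP kinases. In macrophages, Tnf is transcribed within minutes of Toll-like receptor stimulation through NF-κB, and its mRNA is kept short-lived by elements in the 3′ UTR. Such elements include AU-rich elements, bound by tristetraprolin (the product of Zfp36), as well as stem-loops with a pyrimidine-purine-pyrimidine loop, recognized by Roquin proteins and by Regnase-1.

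The sequences that bear on this control are shown first, because Tnf was the only one of the 9 mRNAs in which both kinds of element were found. The longest coding transcript annotation of each gene was searched for the nonamer TTATTTATT and for hairpins with a pyrimidine-purine-pyrimidine loop of 3 bases closed by at least 5 Watson-Crick pairs. The 3′ UTR of Tnf (764 bases) held 5 copies of the nonamer, overlapping ones included, and 2 hairpins. Hairpins were also found in the 3′ UTRs of Fas (448 bases, 1 hairpin) and Tnfrsf1b (2324 bases, 1 hairpin), and a single nonamer in that of Tnfsf13b (3631 bases). Neither element was found in those of Tnfsf15, Tnfsf9, Tnfsf10, Tnfrsf1a and Ltb. Over 20966 annotated 3′ UTRs of any length, 7.58% held the nonamer, 20.9% held such a hairpin and 2.81% held both. The AU-rich stretch and the hairpins are given 5′ to 3′ on the strand of the gene (build GRCm38, the assembly also called mm10). The AU-rich stretch is in capitals, and in the hairpins the capitals mark the loop. The first 30 bases of the 31-base AU-rich stretch of Tnf lie at chr17:35199678-35199707 (minus strand), its hairpins at chr17:35199585-35199599 and chr17:35199430-35199444, the hairpin of Fas at chr19:34327617-34327631 (plus strand) and that of Tnfrsf1b at chr4:145215077-145215089 (minus strand).
Tnf AU-rich stretch: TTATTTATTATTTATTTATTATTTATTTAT
Tnf hairpin nearer the coding sequence: gttttcTGTgaaaac
Tnf hairpin nearer the 3′ end: gctcccCACgggagc
Fas hairpin: ttcataTACtatgaa
Tnfrsf1b hairpin: aaggcCACgcctt
A match of letters describes the sequence and is no evidence of binding.

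The 250 bases upstream of the start site were searched in both orientations for the κB consensus (NF-κB), for a GAAA repeat (GAAA, any 2 bases, GAAA, a motif of interferon-responsive factors), for TGANTCA (AP-1) and for TATAAA, with RefSeq promoters (GRCm38.p6) that were matched for 8 of the 9 genes. Tnfsf9 had no entry. The promoter of Tnf (chr17:35202008-35202257, minus strand) is shown whole because Tnf was the most abundant of the 9 mRNAs per exon length after 4 hr of LPS. Its TATAAA box, in capitals, lies from -29 to -24 relative to the start site, and none of the other motifs was found in this window. For Ltb, Tnfrsf1b and Fas, whose mRNAs rose with LPS, 30 bases around the single match are shown with the match in capitals. They are a κB match from -87 to -78 of Ltb (chr17:35194410-35194439, plus strand), a GAAA repeat read on the other strand from -10 to -1 of Tnfrsf1b (chr4:145246871-145246900, minus strand), and a TGANTCA match from -211 to -205 of Fas (chr19:34290437-34290466, plus strand).
Tnf promoter: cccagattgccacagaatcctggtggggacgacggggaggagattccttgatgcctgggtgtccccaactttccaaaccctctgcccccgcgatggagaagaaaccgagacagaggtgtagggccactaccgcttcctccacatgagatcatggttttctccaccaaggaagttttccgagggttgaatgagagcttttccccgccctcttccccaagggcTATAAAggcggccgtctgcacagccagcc
Ltb promoter match: aagggtgttcGGAAAGTCCCcgggcagggg
Tnfrsf1b promoter match: cctagctcctggcctgagggTTTCGCTTTC
Fas promoter match: ctgtgcagtggTGAGTCAgtgggtttcccc
Among 32851 promoters of the same length, 9.55% held the κB consensus, 2.98% held the GAAA repeat, 6.75% held TGANTCA and 12.4% held TATAAA. One of the 2 Tnfsf13b promoters held the GAAA repeat and TGANTCA. No match was found in the windows of Tnfsf15, Tnfsf10 and Tnfrsf1a, which says only that these letters are not in those 250 bases.

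The libraries held 9525979 to 12439960 reads on the listed genes, with a median of 11137241, and a floor of 3 reads corresponded to a log2 CPM between -2.04 and -1.30. All 7 macrophage markers (Adgre1, Csf1r, Itgam, Cd68, Mertk, Lyz2 and Fcgr1) had rows, and their summed level was 16200 to 26400 CPM in every library. Of 8 neutrophil markers, Ly6g, S100a9, Cxcr2, Ngp and Retnlg had no row, and the other 3 summed to between 71.8 and 105 CPM at 0 hr and between 381 and 473 CPM at 8 hr. Of these 3, Mmp9 was called higher at 8 hr in both genotypes (log2 fold change 2.74 in WT and 2.85 in S513A). S100a8 was called higher only in WT (1.75, against -0.02 in S513A). Camp, called higher in both, was at 1.80 log2 CPM or less in every library. The summed level was 10.1 to 25.9 CPM for 5 of 6 B cell markers (Pax5 had no row) and 1.11 to 2.64 CPM for 2 of 7 T cell markers (Cd3e, Cd3d, Cd3g, Cd8a and Trac had no row). The 1 of 5 NK cell markers with a row, Klrk1, was at 0.0348 to 0.132 CPM at 0 hr, below the floor of 3 reads in every library. It was at 1.33 to 3.20 CPM at 4 hr, where it was called higher in both genotypes, and at 0.902 to 1.89 CPM at 8 hr. Ncr1, Klrb1c, Gzma and Eomes had no row. The summed level was 3.62 to 18.5 CPM for 2 of 5 eosinophil markers, lowest at 8 hr, 1.76 to 3.84 CPM for 4 of 5 mast cell markers, 5.40 to 12.1 CPM for 5 of 6 dendritic cell markers and 8.28 to 48.9 CPM for 5 of 6 mesothelial markers. The part of these cells in the changes below was not tested, and in such bulk samples fewer cells of a type cannot be told apart from less RNA per cell. The 2 libraries of a group differed least in S513A at 0 hr and most in WT at 4 hr, where the SD of the log2 difference over 8353 well-expressed genes was 0.162 and 0.401, respectively.

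**Figure D1:**
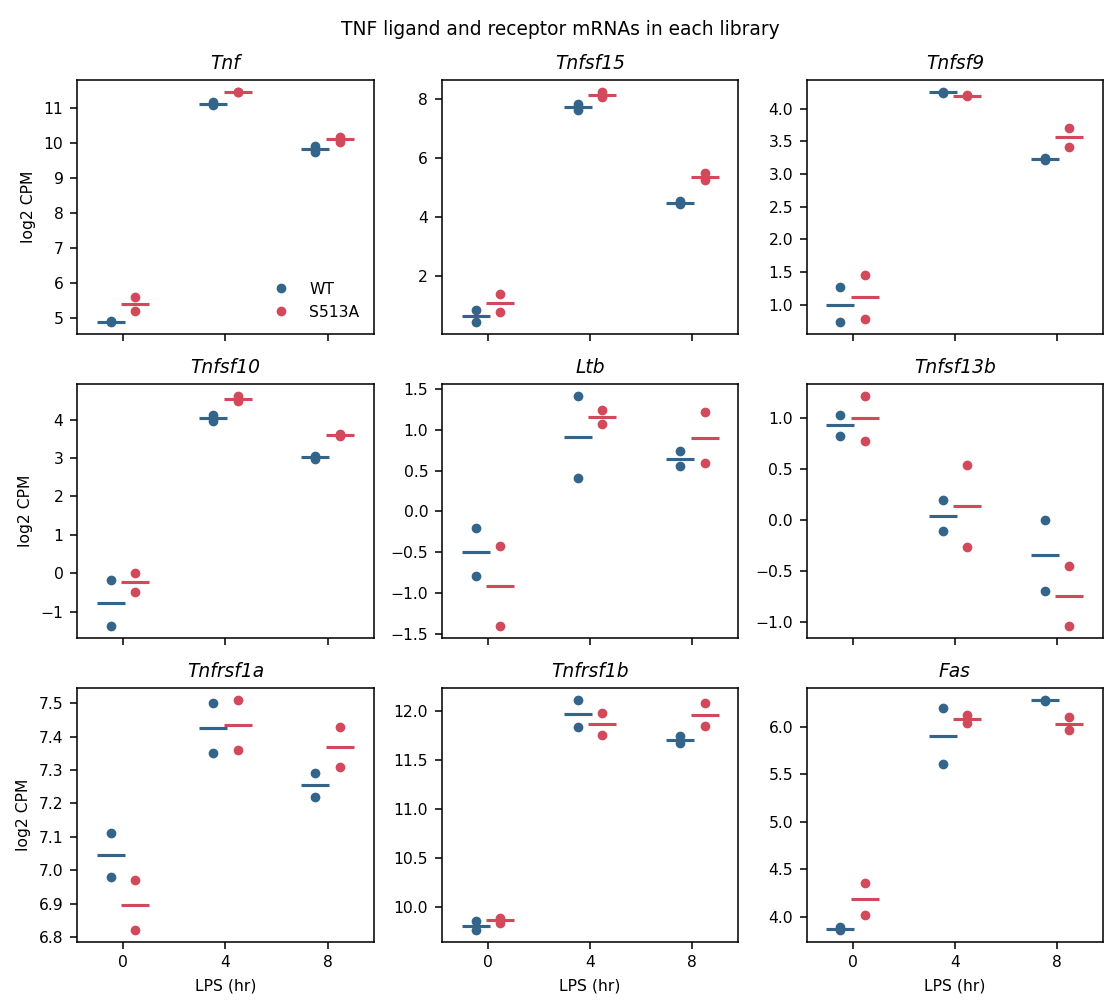
Level of each of the 9 mRNAs (log2 CPM, y axis, with a scale of its own in each panel) at 0, 4 and 8 hr of LPS (x axis). Points are single libraries, 2 per group, and dashes are group means in WT (blue) and S513A (red). Tnf and Tnfsf15 peak at 4 hr with 4 hr libraries far above the 0 hr libraries, Tnfrsf1b and Fas stay high at 8 hr, and Tnfsf13b goes down.

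The first comparison was that of LPS-treated with unstimulated cells, within each genotype. After 4 hr of LPS, 8 of the 9 mRNAs rose and none fell in both WT and S513A cells (limma, adjusted p below 0.05). Ltb and Tnfsf10, among these 8, entered the tests only through LPS libraries, where they were high. With no filter on low values, the count called higher was also 8 in each genotype. The steepest rises were those of the ligands Tnfsf15, Tnf and Tnfsf10, and Tnfsf13b alone was not called. Over all genes tested, 22.6% were called higher and 18.7% lower in WT, and 23.1% higher and 20.2% lower in S513A. The median log2 fold change of the 9 mRNAs was 2.16 in WT and 2.08 in S513A, against 0.0372 and -0.0048 for all genes tested. These counts and medians describe the genes chosen and not the whole family. Of 17 other family members tested, 5 were higher and 9 lower at 4 hr in each genotype. After 8 hr, 6 mRNAs were higher and 1 was lower than at 0 hr in WT, where 19.4% of all genes were called higher and 14.9% lower. Both comparisons use the same 0 hr libraries. In S513A, 8 were higher and 1 was lower, where 20.9% of all genes were called higher and 19.0% lower. With quantile normalization, more genes were called lower than higher in all 4 of these comparisons, with 2178 higher and 2646 lower in WT and 2292 and 2612 in S513A at 4 hr, and 1906 and 2377 in WT and 2243 and 2583 in S513A at 8 hr. Without it, the counts were 2684 and 2222, 2741 and 2396, 2309 and 1770, and 2486 and 2258 in the same order. Leaving out 1 library lowered the total called at 8 hr to as few as 2489 from 4079 in WT (without WT 8 hr replicate 2) and 2994 from 4744 in S513A (without S513A 0 hr replicate 1).

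Tnf (chr17:35199381-35202007, minus strand) encodes TNF itself, the founding cytokine of the family. The WT libraries had 4.90 and 4.88 log2 CPM when unstimulated, 11.15 and 11.07 after 4 hr of LPS and 9.73 and 9.91 after 8 hr. The S513A libraries had 5.21 and 5.61, then 11.44 and 11.45, then 10.03 and 10.17 log2 CPM. Every 4 hr library lay above every 8 hr library, and every 8 hr library above every 0 hr library. Its fold change at 4 hr was 74.3 in WT (log2 fold change 6.22, SE 0.13, limma adjusted p = 4.41e-10) and 65.5 in S513A (6.03, SE 0.13, adjusted p = 9.02e-10). At 8 hr the level was still 30.4-fold above that at 0 hr in WT (4.93, SE 0.13, limma adjusted p = 3.78e-09) and 25.8-fold in S513A (4.69, SE 0.13, adjusted p = 5.66e-09).

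Tnfsf15 (chr4:63727084-63745113, minus strand) encodes TL1A, the ligand of death receptor 3. Unstimulated WT libraries held 19 and 23 of its reads, against 2640 and 2175 after 4 hr and 229 and 245 after 8 hr. The S513A libraries held 19 and 31 reads, then 2738 and 2647, then 440 and 415. Tnfsf15 thus went from 31 reads or fewer to 2175 or more and back to 440 or fewer, with no overlap between time points. Its rise at 4 hr was 138-fold in WT (log2 fold change 7.10, SE 0.21, limma adjusted p = 2.73e-09) and 135-fold in S513A (7.08, SE 0.21, adjusted p = 2.39e-09), the largest of the 9 mRNAs in both genotypes. At 8 hr the fold was 14.4 in WT and 19.4 in S513A (limma adjusted p = 2.34e-07 and 1.08e-07).

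Tnfsf10 (chr3:27317028-27342427, plus strand) encodes TRAIL, a ligand that can induce apoptosis through death receptors. It was barely detected at 0 hr, with 5 and 11 reads in the WT libraries and 11 and 8 in the S513A libraries. After 4 hr the WT libraries held 178 and 189 reads and the S513A libraries 226 and 211. After 8 hr WT held 82 and 87 and S513A 138 and 114. The 0 hr libraries lay below all LPS libraries. The rise at 4 hr was 28.4-fold in WT (log2 fold change 4.83, SE 0.33, limma adjusted p = 8.65e-07) and 27.6-fold in S513A (4.79, SE 0.33, adjusted p = 8.98e-07), and at 8 hr 13.9-fold and 14.3-fold (limma adjusted p = 7.10e-06 and 5.91e-06).

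Tnfsf9 (chr17:57105325-57107757, plus strand) encodes 4-1BBL, a costimulatory ligand for T cells whose receptor is the unanalysed Tnfrsf9. Of its 1290 exon bases, 192 also lie in the antisense lincRNA Gm11110, and reads of the 2 genes there cannot be told apart in unstranded data. The unstimulated WT libraries were at 1.27 and 0.73 log2 CPM, those after 4 hr at 4.26 and 4.24, and those after 8 hr at 3.21 and 3.25. For S513A the pairs were 0.78 and 1.45, 4.19 and 4.21, and 3.42 and 3.71. The levels of the 3 time points did not overlap within either genotype. The rise at 4 hr was 9.54-fold in WT (log2 fold change 3.25, SE 0.24, limma adjusted p = 1.65e-06) and 8.51-fold in S513A (3.09, SE 0.24, adjusted p = 2.26e-06).

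Ltb (chr17:35194439-35196320, plus strand), next to Tnf on the chromosome, encodes lymphotoxin-β, which pairs with lymphotoxin-α on the cell surface. It was scarce throughout, with 12 and 7 reads in unstimulated WT libraries, 30 and 14 after 4 hr and 15 and 17 after 8 hr. The S513A libraries held 8 and 4, 21 and 20, and 17 and 21 reads. The LPS libraries were above the 0 hr libraries of their genotype, while the 4 and 8 hr libraries overlapped. Ltb rose at 4 hr by a log2 fold change of 1.42 in WT (SE 0.46, limma adjusted p = 0.0301) and of 2.08 in S513A (SE 0.46, adjusted p = 0.00395). At 8 hr the log2 fold change was 1.14 in WT (limma adjusted p = 0.0779) and 1.82 in S513A (adjusted p = 0.00977). The WT call at 4 hr was lost without WT 4 hr replicate 1 (limma adjusted p = 0.202) and without WT 0 hr replicate 2 (adjusted p = 0.169), and the S513A call at 8 hr without S513A 0 hr replicate 2 (adjusted p = 0.084) or S513A 8 hr replicate 2 (adjusted p = 0.06). The summed B cell markers moved with it, from 12.3 to 16.0 CPM at 0 hr to 21.7 to 22.1 CPM at 4 hr in WT and from 10.1 to 11.5 CPM to 19.2 to 19.3 CPM in S513A, and their part in this change was not tested.

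Tnfsf13b (chr8:10006467-10039072, plus strand) encodes BAFF, a survival factor for B cells, and was the only one of the 9 mRNAs below its unstimulated level. Unstimulated WT libraries held 25 and 26 reads, those after 4 hr 10 and 12, and those after 8 hr 10 and 6. The S513A libraries held 26 and 20, 8 and 12, and 8 and 4 reads. The 0 hr libraries lay above all LPS libraries. The log2 fold change at 4 hr was -0.89 in WT (95% confidence interval -1.81 to 0.04, limma adjusted p = 0.116) and -0.86 in S513A (-1.79 to 0.07, adjusted p = 0.123). At 8 hr Tnfsf13b was lower in WT with a log2 fold change of -1.28 (SE 0.42, limma adjusted p = 0.0367) and in S513A with -1.74 (SE 0.42, adjusted p = 0.00749). The WT call was lost without WT 0 hr replicate 1, WT 0 hr replicate 2, WT 8 hr replicate 2 or S513A 0 hr replicate 1 (limma adjusted p = 0.106, 0.154, 0.227 and 0.0507), and the S513A call without S513A 0 hr replicate 1 (adjusted p = 0.0638).

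The receptors for TNF differed in their response. Tnfrsf1b (chr4:145213463-145246870, minus strand), which encodes the inducible receptor TNFR2, stood at 9.85 and 9.76 log2 CPM in unstimulated WT libraries, 11.83 and 12.11 after 4 hr and 11.67 and 11.74 after 8 hr. In S513A libraries it was at 9.83 and 9.89, 11.98 and 11.75, and 12.08 and 11.84. All LPS libraries lay above all 0 hr libraries. Tnfrsf1b rose 4.48-fold at 4 hr in WT (log2 fold change 2.16, SE 0.15, limma adjusted p = 9.81e-07) and 4.02-fold in S513A (2.01, SE 0.15, adjusted p = 1.63e-06), and was 3.73-fold and 4.29-fold higher at 8 hr (limma adjusted p = 3.54e-06 and 1.55e-06).

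Tnfrsf1a (chr6:125349362-125362484, plus strand), which encodes the broadly expressed receptor TNFR1, moved little. It stood at 7.11 and 6.98 log2 CPM in unstimulated WT libraries, 7.35 and 7.50 after 4 hr and 7.29 and 7.22 after 8 hr, and at 6.82 and 6.97, 7.51 and 7.36, and 7.43 and 7.31 in S513A libraries. Its log2 fold change at 4 hr was 0.38 in WT (SE 0.11, limma adjusted p = 0.0187) and 0.54 in S513A (SE 0.11, adjusted p = 0.00242), and at 8 hr 0.21 in WT (adjusted p = 0.163) and 0.48 in S513A (adjusted p = 0.0059). None of the 3 calls held with quantile normalization, where the log2 fold changes in that order were 0.02, 0.23, -0.09 and 0.27 (limma adjusted p = 0.901, 0.18, 0.624 and 0.11). The WT call at 4 hr was also lost without WT 0 hr replicate 2 (limma adjusted p = 0.128) or WT 4 hr replicate 2 (adjusted p = 0.0759), and the S513A call at 8 hr without S513A 0 hr replicate 1 (adjusted p = 0.0624).

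Fas (chr19:34290666-34327772, plus strand) encodes the death receptor CD95. The unstimulated WT libraries stood at 3.86 and 3.89 log2 CPM, those after 4 hr at 6.20 and 5.61 and those after 8 hr at 6.27 and 6.28, and the S513A libraries at 4.02 and 4.36, 6.04 and 6.12, and 5.96 and 6.10. The LPS libraries lay above all 0 hr libraries, and the WT 4 hr libraries were the furthest apart. Fas rose 4.08-fold at 4 hr in WT (log2 fold change 2.03, SE 0.18, limma adjusted p = 6.34e-06) and 3.71-fold in S513A (1.89, SE 0.18, adjusted p = 1.01e-05), and was 5.28-fold and 3.58-fold higher at 8 hr (limma adjusted p = 2.31e-06 and 1.55e-05).

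**Figure D2:**
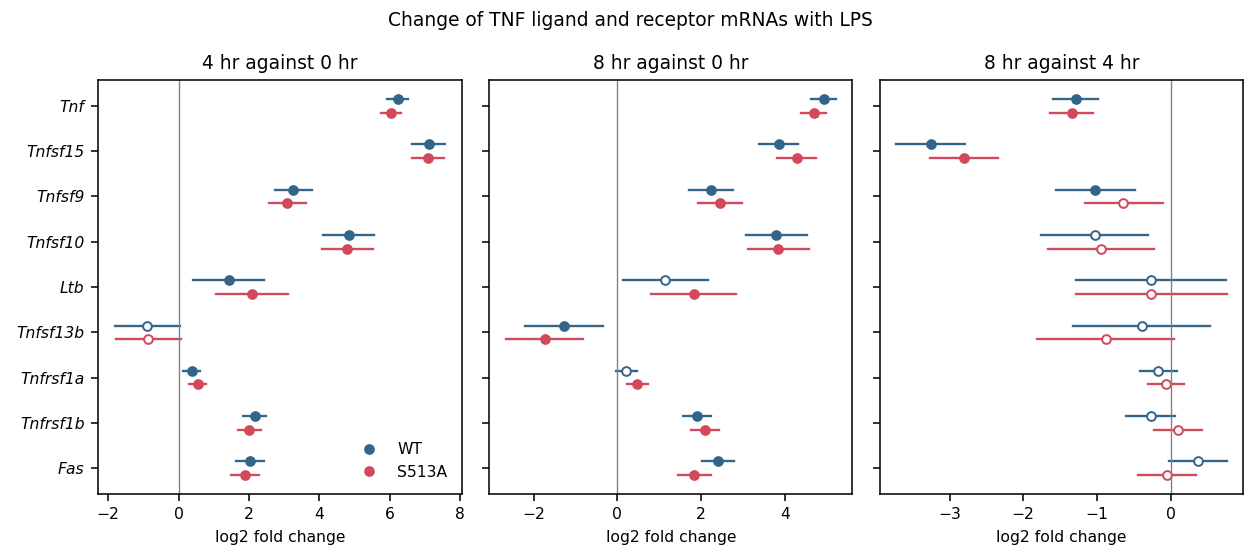
Log2 fold change with LPS (x axis, a scale of its own in each panel) of the 9 mRNAs (y axis) at 4 hr against 0 hr, 8 hr against 0 hr, and 8 hr against 4 hr, in WT (blue) and S513A (red). Lines are 95% confidence intervals from limma and filled points have an adjusted p below 0.05. At 4 hr, 8 mRNAs are called higher in each genotype, and between 4 and 8 hr Tnf and Tnfsf15 are called lower in both.

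Among the 9 mRNAs, those called lower between 4 and 8 hr were those of ligands. None of the 3 receptor mRNAs was called in either direction, while receptors elsewhere in the family were, as given below. In WT, 3 mRNAs fell (Tnfsf15, Tnf and Tnfsf9) and none rose, where 7.49% of all genes were called lower and 6.73% higher. In S513A, 2 fell (Tnfsf15 and Tnf) and none rose, where 8.99% were called lower and 9.31% higher. Tnfsf15 fell 9.54-fold in WT (log2 fold change -3.25, SE 0.21, limma adjusted p = 4.84e-05) and 6.97-fold in S513A (-2.80, SE 0.21, adjusted p = 7.98e-05), and Tnf fell 2.44-fold in WT (-1.29, SE 0.13, limma adjusted p = 0.000305) and 2.54-fold in S513A (-1.34, SE 0.13, adjusted p = 0.000316). For Tnfsf9 the log2 fold change was -1.02 in WT (limma adjusted p = 0.018) and -0.64 in S513A (adjusted p = 0.0848). That WT call was lost without WT 4 hr replicate 2, WT 8 hr replicate 1 or WT 8 hr replicate 2 (limma adjusted p = 0.0668, 0.107 and 0.0953). Tnfsf10 did not pass, with -1.03 in WT (limma adjusted p = 0.0602) and -0.94 in S513A (adjusted p = 0.0679). It passed in both genotypes with voom weights, a further pseudocount of 1 CPM or quantile normalization (limma adjusted p between 0.00269 and 0.0487). Tnfrsf1b had a log2 fold change of -0.27 in WT (95% confidence interval -0.60 to 0.06) and 0.10 in S513A (-0.23 to 0.42), and Fas one of 0.37 (-0.02 to 0.76) and -0.05 (-0.44 to 0.34).

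The order of the mRNAs by level changed accordingly. Levels of different genes are compared as CPM per kb of exons, as means of 2 libraries. In WT cells at 0 hr the receptor Tnfrsf1b led with 235 CPM per kb, followed by Tnfrsf1a (51.0), Tnf (18.1), Fas (7.11), Tnfsf9 (1.57), Ltb (0.478), Tnfsf15 (0.473), Tnfsf13b (0.278) and Tnfsf10 (0.120), and among neighbours in this order Ltb and Tnfsf15 overlapped between libraries. At 4 hr Tnf led with 1350 CPM per kb (libraries 1310 and 1380) ahead of Tnfrsf1b with 1060 (953 and 1160), and Tnfsf15 had moved up to 64.6, overlapping with Tnfrsf1a at 66.4. Fas (29.6), Tnfsf9 (14.7), Tnfsf10 (3.15), Ltb (1.32) and Tnfsf13b (0.151) followed without overlap. At 8 hr Tnfrsf1b was again first with 875, ahead of Tnf with 552, Tnfrsf1a with 59.1, Fas with 37.5, Tnfsf9 with 7.27, Tnfsf15 with 6.75, Tnfsf10 with 1.54, Ltb with 1.04 and Tnfsf13b with 0.118 CPM per kb, again without overlap. In S513A cells Tnf was likewise first at 4 hr (1700 against 980 for Tnfrsf1b) and Tnfrsf1b at 0 hr (243 against 45.9 for Tnfrsf1a) and 8 hr (1050 against 671 for Tnf), and Tnfsf15 came next at 4 hr with 86.2 (80.5 and 91.9) above Tnfrsf1a with 66.9 (63.4 and 70.4).

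**Figure D3:**
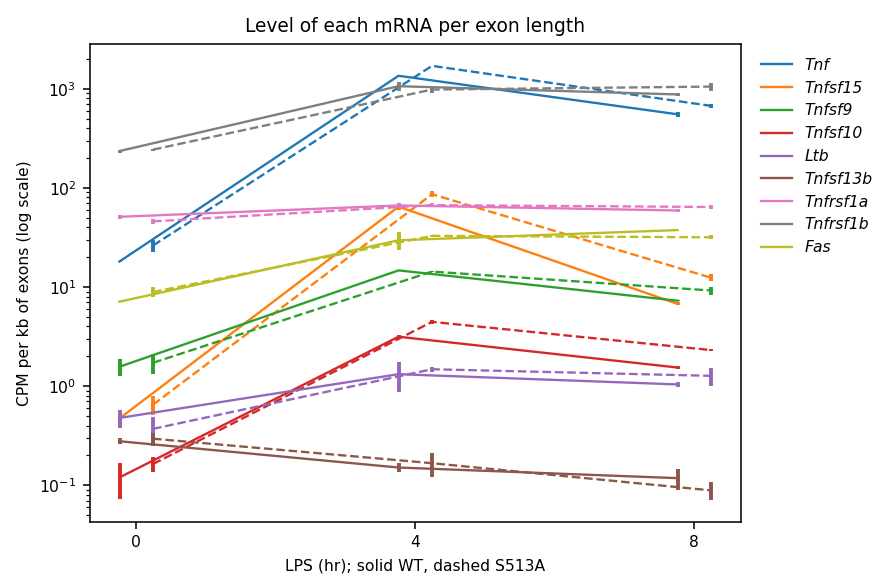
Level per exon length (CPM per kb, y axis, log scale) of the 9 mRNAs at 0, 4 and 8 hr of LPS (x axis) in WT (solid lines) and S513A (dashed lines). Lines join the means of 2 libraries and vertical bars span both libraries. Tnf crosses above Tnfrsf1b at 4 hr and is below it at 0 and 8 hr, and Tnfsf13b declines.

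Within each library, the ratio of Tnfrsf1b to Tnfrsf1a mRNA per kb was 4.55 and 4.66 in unstimulated WT and 5.46 and 5.15 in unstimulated S513A cells. After 4 hr it reached 15.2 and 16.6 in WT and 15.1 and 14.2 in S513A. After 8 hr it ranged from 14.1 to 17.1 over the 4 libraries. The transcripts for TNFR2 thus outnumbered those for TNFR1 more in every LPS library than in any 0 hr library. The ratio of Tnf to Tnfrsf1b per kb was between 0.0752 and 0.12 in the 4 libraries at 0 hr, between 1.13 and 1.90 at 4 hr, and between 0.563 and 0.733 at 8 hr.

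The second comparison was that of S513A with WT cells, for which the study was made. None of the 9 mRNAs differed between genotypes at any time or averaged over the 3 times (limma, adjusted p of 0.246 or more). An unadjusted p under 0.05 was found for 1 of the 9 at each of the 3 times and for 3 in the mean over times, against 7.98%, 7.01%, 12.5% and 6.71% of all genes at 0, 4 and 8 hr and in the mean, and with voom weights the number called was also 0. The share of all genes called was 0.0337% before LPS, 0.0168% after 4 hr, 0.0337% after 8 hr and 0.0673% for the average over times. The 3 mRNAs with an unadjusted p under 0.05 in the mean were the ligands Tnf, Tnfsf15 and Tnfsf10, each nominally higher in S513A.

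For Tnf, the levels given above place the S513A pair over the WT pair at each time, a pattern found in 1.03% of all genes tested, and its converse in 0.597%. The log2 difference of Tnf (S513A minus WT) was 0.52 before LPS, 0.34 after 4 hr, 0.28 after 8 hr and 0.38 on average (95% confidence interval 0.21 to 0.55, limma unadjusted p = 0.000537, adjusted p = 0.246), a ratio of 1.30. For Tnfsf15 the differences at these times were 0.44, 0.42, 0.87 and, in the mean, 0.58 (0.31 to 0.84, limma unadjusted p = 0.000659, adjusted p = 0.25), a ratio of 1.49. At 8 hr the ratio was 1.83 (limma unadjusted p = 0.00174, adjusted p = 0.395). For Tnfsf10 the mean difference was 0.54 (0.13 to 0.96, limma unadjusted p = 0.0154, adjusted p = 0.622). The difference of Tnfsf10 at 0 hr, 0.54, rested on WT 0 hr replicate 1 with 5 reads and was -0.06 without it. Among the marker sums, that of neutrophils was 100 to 105 CPM in S513A and 71.8 to 73.4 CPM in WT at 0 hr and overlapped between genotypes at 4 and 8 hr. That of B cells was lower in both S513A libraries than in both WT libraries at each time (14.5 to 16.7 against 17.9 to 25.9 CPM at 8 hr). The sums were likewise lower for macrophages at 8 hr (16200 to 21700 against 23000 to 23900 CPM), dendritic cells at 0 and 8 hr and mesothelial cells at 0 hr. Single macrophage markers differed in direction at 8 hr. Their log2 differences (S513A minus WT) were -0.48 for Lyz2, the most abundant, -0.24 for Fcgr1, -0.17 for Adgre1 and -0.12 for Itgam. For Cd68, Csf1r and Mertk they were 0.0, 0.15 and 0.32, and none of these markers was called. The NK cell marker was higher in S513A at 4 hr (2.02 to 3.20 against 1.33 to 1.54 CPM). At 0 hr it lay below the floor of 3 reads in every library and cannot be compared. The eosinophil sum was higher in S513A at 0 hr and lower at 8 hr. The part of all these cells in the genotype differences was not tested.

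The other mRNAs gave mean differences between -0.08 and 0.13 on the log2 scale. The upper bounds of the intervals were 0.31 for Fas, 0.26 for Tnfrsf1b and 0.13 for Tnfrsf1a, while the intervals of Ltb (-0.56 to 0.62) and Tnfsf13b (-0.61 to 0.46) were wide at their few reads. Of the 3 mRNAs with a hairpin, Tnf had a mean log2 difference of 0.38, Fas of 0.08 and Tnfrsf1b of 0.07. Tnfsf15 (0.58) and Tnfsf10 (0.54) had no such hairpin by this search. None of these differences was called, and a relation to hairpins was not tested.

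**Figure D4:**
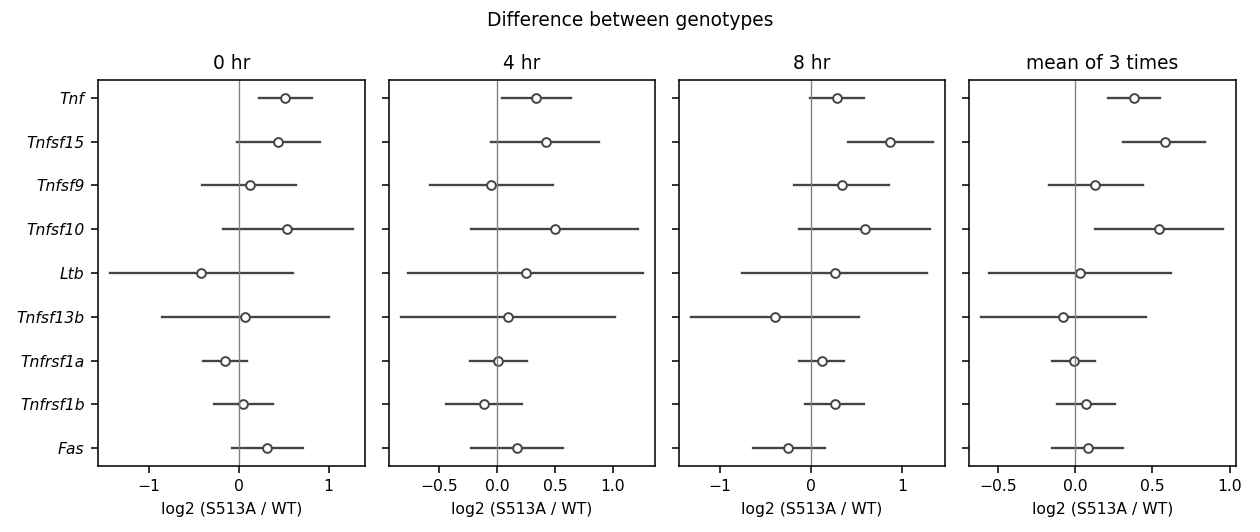
Log2 ratio of S513A to WT (x axis, a scale of its own in each panel) for the 9 mRNAs (y axis) at 0, 4 and 8 hr and in the mean of the 3 times. Lines are 95% confidence intervals from limma and all points are open because no adjusted p is below 0.05. In the mean over times the intervals of Tnf, Tnfsf15 and Tnfsf10 lie above 0 before adjustment.

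Whether the LPS response itself differed between genotypes was tested as an interaction. None of the 9 mRNAs was called at 4 hr or 8 hr (limma, adjusted p of 1.0 at 4 hr and 0.245 or more at 8 hr), and neither was any other gene (0.0% of all genes at both times, with an unadjusted p under 0.05 for 1.21% at 4 hr and 20.2% at 8 hr). An unadjusted p under 0.05 was found for 0 of the 9 at 4 hr and 1 at 8 hr, and voom weights also gave 0 calls. The 1 was Fas at 8 hr, with a rise smaller in S513A by a log2 difference of -0.56 (95% confidence interval -1.12 to -0.00, limma unadjusted p = 0.0488, adjusted p = 0.245). For Tnf the log2 difference in response was -0.18 at 4 hr (-0.60 to 0.24) and -0.24 at 8 hr (-0.66 to 0.18), and for Tnfsf15 -0.02 (-0.68 to 0.63) and 0.43 (-0.22 to 1.09).

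The rest of the superfamily was read from a list of 37 other ligand and receptor symbols, of which 22 had a row and 17 passed the filter. Lta and Tnfsf4 passed it only through LPS libraries. More of the 17 fell than rose. At 4 hr, 5 were higher and 9 lower in WT and likewise 5 and 9 in S513A, with a median log2 fold change of -0.80 and -0.62. The largest rises in WT were those of Cd40, a costimulatory receptor (log2 fold change 5.38, limma adjusted p = 1.04e-08), Lta and Tnfrsf8, which encodes CD30 (3.57, adjusted p = 1.02e-06). Lta, which encodes lymphotoxin-α, the partner of lymphotoxin-β, had 1 read in each of the 4 libraries at 0 hr. It had 26 and 18 reads in WT at 4 hr, a ratio of 27.1 in reads per effective library size (exact 95% interval 7.06 to 230, counting error only), and 26 and 13 reads in S513A (24.2, 6.27 to 207). The largest falls were those of Tnfrsf26 (-3.29, limma adjusted p = 2.78e-07) and Tnfrsf23 (-1.85, adjusted p = 3.19e-05), related receptors between which reads may be split, and of Tnfrsf12a, the receptor of TWEAK (-1.30, adjusted p = 0.00226). At 8 hr, 5 were higher and 8 lower in WT and 6 and 8 in S513A. Between 4 and 8 hr, 3 were higher and 1 lower in WT and 3 and 4 in S513A. The 3 higher were the receptors Tnfrsf21, Tnfrsf22 and Tnfrsf26 in both genotypes. Those lower were the ligand Tnfsf13 in both genotypes and the receptors Cd40, Tnfrsf12a and Tnfrsf23 in S513A. Over all genes, 19.4% were higher and 14.9% lower at 8 hr in WT, and 20.9% and 19.0% in S513A. From 4 to 8 hr the shares were 6.73% and 7.49% in WT, and 9.31% and 8.99% in S513A. None of the 17 was called between genotypes by limma or with voom weights, and 1, 3 and 3 had an unadjusted p under 0.05 at 0, 4 and 8 hr, beside the shares of all genes given above.

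**Figure D5:**
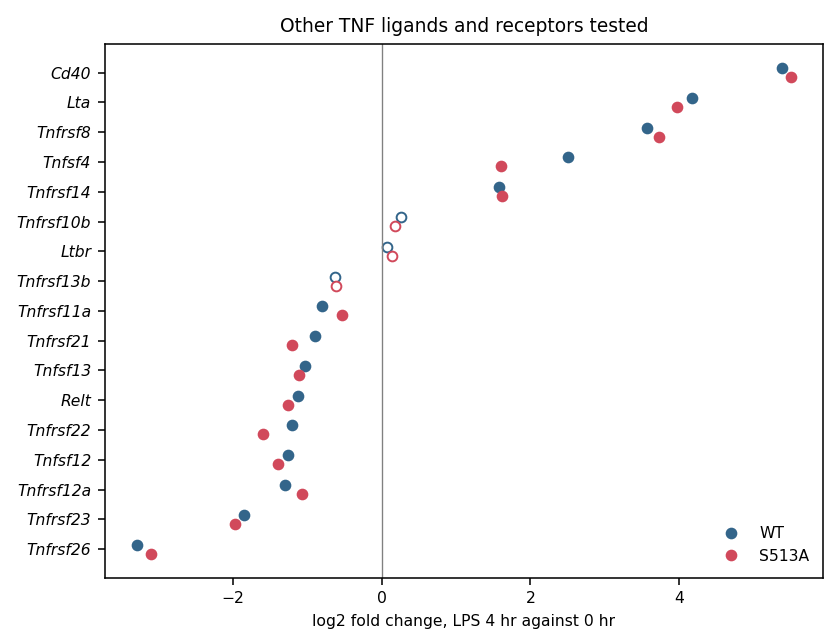
Log2 fold change at 4 hr against 0 hr of LPS (x axis) for the 17 other TNF ligand and receptor mRNAs tested (y axis) in WT (blue) and S513A (red), with filled points for an adjusted p below 0.05 in limma. Cd40 is at the top with 5.38 in WT and Tnfrsf26 at the bottom with -3.29. The fitted value of Lta rests on 1 read per library at 0 hr.

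Of 34 genes for adaptors, kinases, NF-κB factors and inhibitors downstream of these receptors, all 34 were tested. At 4 hr, 22 were higher and 0 lower in WT (21 and 0 in S513A). Over all genes, 22.6% were higher and 18.7% lower in WT, and 23.1% and 20.2% in S513A. The median log2 fold change of the 34 genes was 0.58 in WT. The largest changes were in Traf1, an adaptor bound by TNFR2 (log2 fold change 4.22 in WT, limma adjusted p = 7.80e-09), Nfkb2, the p100 subunit precursor (3.20, adjusted p = 6.89e-08), Nfkbia, the inhibitor IκBα (2.92, adjusted p = 3.50e-08), and Cflar, the caspase-8 inhibitor cFLIP (2.84, adjusted p = 6.89e-08). At 8 hr, 18 were higher and 0 lower in WT and 21 and 1 in S513A. From 4 to 8 hr 1 was higher and 11 lower in WT and 2 and 7 in S513A. Over all genes, 19.4% were higher and 14.9% lower at 8 hr in WT, and 20.9% and 19.0% in S513A. From 4 to 8 hr the shares were 6.73% and 7.49% in WT, and 9.31% and 8.99% in S513A.

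All of the 24 genes listed for TNF synthesis, mRNA decay and shedding were tested. At 4 hr, 22.6% of all genes were called higher and 18.7% lower in WT, and 23.1% and 20.2% in S513A. Of the list, 12 were higher and 4 lower in WT and 13 and 4 in S513A. Those with the largest changes were Zc3h12c, a relative of Zc3h12a (log2 fold change 3.30 in WT, limma adjusted p = 1.32e-07), Mapkapk2, the p38-activated kinase MK2 that counters tristetraprolin (2.77, adjusted p = 1.53e-08), Zc3h12a itself (2.71, adjusted p = 2.91e-08), and Zfp36l1, a relative of tristetraprolin, which fell (-2.10, adjusted p = 0.000166). Mapkapk2 and Zc3h12a thus both rose in these libraries, and their effect on Tnf mRNA was not tested. Zc3h12a fell again between 4 and 8 hr in WT (log2 fold change -1.16, limma adjusted p = 0.000242) and in S513A (-0.87, adjusted p = 0.000968). At 8 hr, 8 genes of the list were higher and 4 lower than at 0 hr in WT and 13 and 2 in S513A. From 4 to 8 hr 0 were higher and 10 lower in WT and 3 and 4 in S513A. Over all genes, 19.4% were higher and 14.9% lower at 8 hr in WT, and 20.9% and 19.0% in S513A. From 4 to 8 hr the shares were 6.73% and 7.49% in WT, and 9.31% and 8.99% in S513A. None of the 34 or 24 genes was called between genotypes or in the interaction by limma or with voom weights, and the number with an unadjusted p under 0.05 in a comparison was 0 to 8 of the 34 (8 between genotypes at 8 hr, where 12.5% of all genes had one) and 0 to 6 of the 24 (6 in the interaction at 8 hr, where 20.2% had one). Tnip2 is in both lists.

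Finally, the genes whose levels followed those of each mRNA most closely over the 12 libraries were listed by Pearson's r, as a description over libraries that share the 3 time points and both genotypes. For Tnf they were Cxcl2, a chemokine (r = 0.999), Parp9 (0.998) and Traf1 (0.998). For Tnfsf9 they were Edn1, which encodes endothelin-1 (r = 0.997), Hcar2 (0.996) and 1110032F04Rik (0.996), and for Tnfsf15 they were Kpna3, Gm6377 and Sde2 (each 0.996). For Tnfsf10 they were Rasgef1b (r = 0.994), Tmem229b and Slfn8 (each 0.992). For Tnfrsf1b they were Tnfaip2 (r = 0.998), Malt1, a protease of NF-κB signaling (0.998), and Znfx1 (0.997), and for Fas Slc31a2 (0.997), Sod2, the mitochondrial superoxide dismutase (0.996), and Lcn2, which encodes lipocalin-2 (0.995). For Tnfrsf1a they were E2f8 (r = 0.984), Csf1, the macrophage growth factor (0.982), and Arhgap35 (0.976). The scarce Ltb and Tnfsf13b had lower values, with Zfp558 (r = 0.949), Nop56 (0.948) and Rnf14 (0.94) for Ltb, and Palb2 (0.966), Lrmp (0.932) and Dnajb13 (0.929) for Tnfsf13b.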

How the data were processed

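Total RNA of PECs was sequenced as polyA RNA, in 2 libraries for each of 6 groups. Paired-end reads were aligned by the authors to mm10 with HISAT2 as unstranded, and reads per gene were counted with featureCounts 1.6.3. The program that normalized the values, the annotation and the filter on genes are not given in the sources used here. The authors deposited log2 CPM values, the log2 of the reads plus 0.5 over an effective library size. From their steps, a whole number of reads was recovered for 100% of the values (within 0.01 read, largest departure 0.00156 read). Rows without a symbol (112, 0.066% of reads) were tested but not named. Replicate libraries differed by more than sampling noise (chi-square per degree of freedom 3.64 to 42.9).

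The log2 values were tested with limma 3.58.1 in R 4.3.3, with a mean per group over all 12 libraries (6 residual degrees of freedom), a prior that follows the mean, two-sided tests and Benjamini-Hochberg adjustment over 11885 genes (those reaching 1 CPM in 2 or more libraries), with a threshold of 0.05. A fold change is on the scale of the deposited values, which understates the changes of genes with few reads. The script was tested on simulated data. Gene positions, exon lengths and 3′ UTRs came from GENCODE M21 (GRCm38) and promoters from RefSeq. Intervals of read ratios and floors cover counting error only. Tables were made with Python 3.11.15, pandas 2.3.3 and numpy 2.4.6, and plots with matplotlib 3.10.9.

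The 10 genes, the lists of other genes and the markers were chosen with earlier results of these data known. Beside the 9 genes with a row, the text names the 3 largest rises and 3 largest falls at 4 hr in WT among the other family members called, up to 4 genes of each pathway list with the largest change at 4 hr in WT among those called in both genotypes, and the 3 genes nearest to each of the 9 by correlation. The alternatives concerned the filter (none, or the stricter demand of 5 CPM on average), the pseudocount (1 CPM more), the scaling (quantile normalization or median-ratio scaling), the variance prior (robust, or without a trend), the model (a replicate block, correlated libraries, a hidden factor, or only the libraries compared), voom weights on the recovered reads, and the omission of each library in turn.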

Additional observations from a re-analysis of the deposited data

How the results depend on the processing

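The log2 values of 72 pairs of an mRNA and a comparison, those given singly in the text, were recomputed under these alternatives. They kept direction and side of the threshold in 1637 cases, gained a call in 31, lost one in 21 and changed sign in 29. With quantile normalization the sign changed for Tnfrsf1a in WT at 8 hr (-0.09), Tnfrsf1b at 8 hr against 4 hr in WT (0.02) and, between genotypes in the mean, Tnfsf13b (0.02) and Tnfrsf1b (-0.04). With a further pseudocount of 1 it changed for the Tnfsf15 interaction at 4 hr (0.13). Leaving out a library changed it for values near 0: at 8 hr against 4 hr in S513A, Tnfrsf1b ranged from -0.03 to 0.22 and Fas from -0.12 to 0.02. In the interaction at 4 hr, Tnf ranged from -0.38 to 0.02 and Tnfsf15 from -0.34 to 0.29. In the mean between genotypes, Tnfsf13b ranged from -0.21 to 0.06, Tnfrsf1a from -0.03 to 0.02, Fas from -0.02 to 0.18 and Ltb from -0.14 to 0.20. It also changed for Tnfsf10 between genotypes at 0 hr (-0.06 without WT 0 hr replicate 1 and 1.15 without WT 0 hr replicate 2, the range over libraries left out). The number of mRNAs called lower at 8 hr against 0 hr went from 1 to 0 in WT with the stricter filter, which leaves Tnfsf13b out, and with a replicate block, and from 1 to 0 in S513A with the stricter filter. Leaving out a library gave 0 to 1 in both genotypes, and 0 to 1 called higher at 8 hr against 4 hr in WT, where the 1 was Fas without WT 4 hr replicate 1. The number called lower at 8 hr against 4 hr in S513A went from 2 to 4 with a further pseudocount of 1, with voom weights and with the hidden factor.

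The hidden factor, the first component of the residuals (39.2% of their variance), is estimated from the residuals it then removes and so narrows the spread by construction. With it, the number called went from 0 to 1 higher and from 3 to 5 lower at 8 hr against 4 hr in WT, from 0 to 1 (Tnf) between genotypes at 0 hr, from 0 to 2 (Tnfsf15 and Tnfrsf1b) at 8 hr, from 0 to 2 (Tnf and Tnfsf15) in the mean and from 0 to 1 (Fas, lower) in the interaction at 8 hr. The number of all genes called then rose from 4 to 1569 between genotypes at 0 hr, from 2 to 1058 at 4 hr, from 4 to 2231 at 8 hr, from 8 to 288 in the mean and from 0 to 3389 in the interaction at 8 hr, and from 4079 to 6216 (WT 8 hr against 0 hr), 1690 to 4156 (WT 8 hr against 4 hr) and 2175 to 5097 (S513A 8 hr against 4 hr). With only the libraries compared, the count was 656 in WT and 596 in S513A at 8 hr against 4 hr, and 693, 0 and 1 between genotypes at 0, 4 and 8 hr. Under the other alternatives that moved a genotype count by over 1.5 times, it was 0 to 2 at 0 hr, 0 to 1 at 4 hr, 1 at 8 hr and 3 to 5 in the mean. Leaving out a library gave 2489 to 4824 (WT) and 2994 to 5425 (S513A) at 8 hr against 0 hr, where the count fell by over 1.5 times without WT 0 hr replicate 1 (2659) or WT 8 hr replicate 2 (2489) in WT and without S513A 0 hr replicate 1 (2994) or S513A 0 hr replicate 2 (3152) in S513A. It gave 554 to 2847 (WT) and 665 to 3144 (S513A) at 8 hr against 4 hr, 0 to 5, 0 to 2 and 0 to 6 between genotypes at the 3 times, 4 to 12 in the mean and 0 to 651 in the interaction at 8 hr.

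The sources do not say whether replicate numbers pair the samples. Deviations of libraries with the same number correlated between -0.358 and 0.155 within WT and between -0.119 and 0.76 within S513A. Between genotypes the range was -0.749 to 0.399. With the replicate block, the count of all genes called between genotypes was 2 at 0 hr and 1 at 4 hr, Tnfsf13b was no longer called in WT at 8 hr (limma adjusted p = 0.0573) and Tnfsf10 was called lower at 8 hr against 4 hr in WT (adjusted p = 0.0483). With 2 libraries per group and few reads on Ltb, Tnfsf13b and, at 0 hr, Tnfsf10, differences of these mRNAs between genotypes were not detectable at this depth unless large.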
